A study of Mus musculus with 5 samples.

Results

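Interferon response and MHC class I genes are read here as 1 module of 37 listed mouse genes. They were listed by name, with earlier results of these data known. For each gene the array probe sets annotated with that single symbol were taken, and the probe set with the highest mean log2 value stood for the gene. This gave 30 of the 37 genes, among 8251 genes measured by the same rule. The other 7 (Oas1a, Oasl2, Stat2, Ifi203, Ifi205, Bst2 and Tgtp1) had no probe set of 1 symbol, and the 6 probe sets that a member shares with other genes were not used. Each of the 5 arrays was made from total RNA, labelled as lung, of A/J mice, an inbred strain, dosed into the trachea. Saline was given for 2 arrays, whose titles carry the numbers 6 and 48, and IL-13, a T helper 2 cytokine studied for its part in making mucus-secreting goblet cells, for 3 arrays with the title numbers 6, 18 and 48. The labels give these numbers no unit and do not say how many animals an array stands for, nor an age, and no label calls the arrays separate animals. A p-value here therefore reflects how far these arrays spread, which may be technical. The arrays of a treatment all differ in title number, so this spread also holds any difference tied to that number. Each array is called by its treatment and title number, and values are given in the order saline 6 and 48, then IL-13 6, 18 and 48.

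Interferons are secreted proteins that act through a receptor pair, Janus kinases and STAT transcription factors. Type I interferons act mostly through Stat2 and Irf9, bound to a response element, and interferon gamma mostly through a gamma-activated sequence and Irf1. The targets include antiviral proteins, GTPases that attack vacuoles of intracellular microbes, and the machinery that cuts proteins into peptides and shows them to CD8 T cells on MHC class I molecules. IL-13 itself signals through a different transcription factor, Stat6. In lung, these genes are active at a basal level in many cell types and are strongly induced by respiratory viruses.

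No member passed the test, and the counts by role are descriptions whose difference was not tested. Of the 9 antigen presentation members, 8 had a lower mean after IL-13, and for 5 of them all 3 IL-13 arrays lay below both saline arrays: Psmb8, Tap1, Tap2, B2m and H2-D1. Of the 21 measured interferon response members, 10 had a higher and 11 a lower mean. For 4 of those 21 (Isg15, Isg20, Ifi35 and Mx1) every IL-13 value exceeded every saline value, and for Ifi47 the reverse held. Among all 8251 genes, 40.1% had a lower and 52.7% a higher mean, 9.39% lay wholly below saline and 12.8% wholly above. By the chosen probe sets the differences were small, from -0.74 (Psmb8) to 0.73 (Irf7) on the log2 scale. None of these reached a factor of 2 in the group means. A dimmer probe set of H2-K1, 97700_at, differed by -1.36 (2.57-fold, limma adjusted p 0.312). In bulk RNA, fewer cells of a type and less RNA per cell cannot be told apart.

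No member was called by limma, a moderated linear model over arrays, at a Benjamini-Hochberg adjusted p below 0.05. Over all 7811 probe sets tested, 0.0512% (4) were called. Of the 30 members, 24 were bright enough to be tested (intensity above 210 on at least 2 arrays). Their lowest adjusted p was 0.412 by the chosen probe sets and 0.312 over all member probe sets tested. An unadjusted p below 0.05 was found for 3 members by their chosen probe sets, Psmb8 (0.0109), Isg20 (0.0263) and Ifi35 (0.0306). Among all probe sets tested the share was 9.26%. The 6 members below the filter were Ifit2, Ifit3, Mx1, Mx2, Rsad2 and Eif2ak2. Among all 8251 genes, 12.8% had every IL-13 value above every saline value and 9.39% had every one below. For the 30 members these shares were 13.3% (4) and 20% (6). The median difference of the 30 members was -0.10, and -0.13 for the 24 tested, against 0.02 over all genes.

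The array saline 6 stood apart and bears on every difference here. Its correlation with the other arrays over tested probe sets was 0.913 to 0.923, and the other 4 correlated with each other at 0.940 or more. Salivary gland markers (7 measured) summed to an intensity of 109308 on saline 6 and to 741 to 867 on the other 4 arrays. The club cell gene Scgb1a1, a marker of airway epithelium, was bright on all 5 arrays (22024 to 31024). The alveolar gene Sftpc read 17179 on IL-13 18, 2615 on saline 6 and 194.3 to 300.5 on the other 3. Heart muscle markers (7 measured) had sums from 11359 (saline 48) to 30857 (saline 6), and 5 of the 7 were highest on saline 6. Actc1, by a probe set with the shared-probe ending f_at, made up 9837 of the sum on saline 48. Myl7 read 7547 on saline 6, 3323 on IL-13 18 and 129.9 to 224.8 on the other 3 arrays. The part of these differences in tissue content in the results was not tested. T cell markers (14 measured, none called) summed to 15739 and 19063 under saline and to 5425 to 10507 under IL-13. Differences are therefore also given without saline 6, which leaves saline 48 as the only control.

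**Figure D1:**
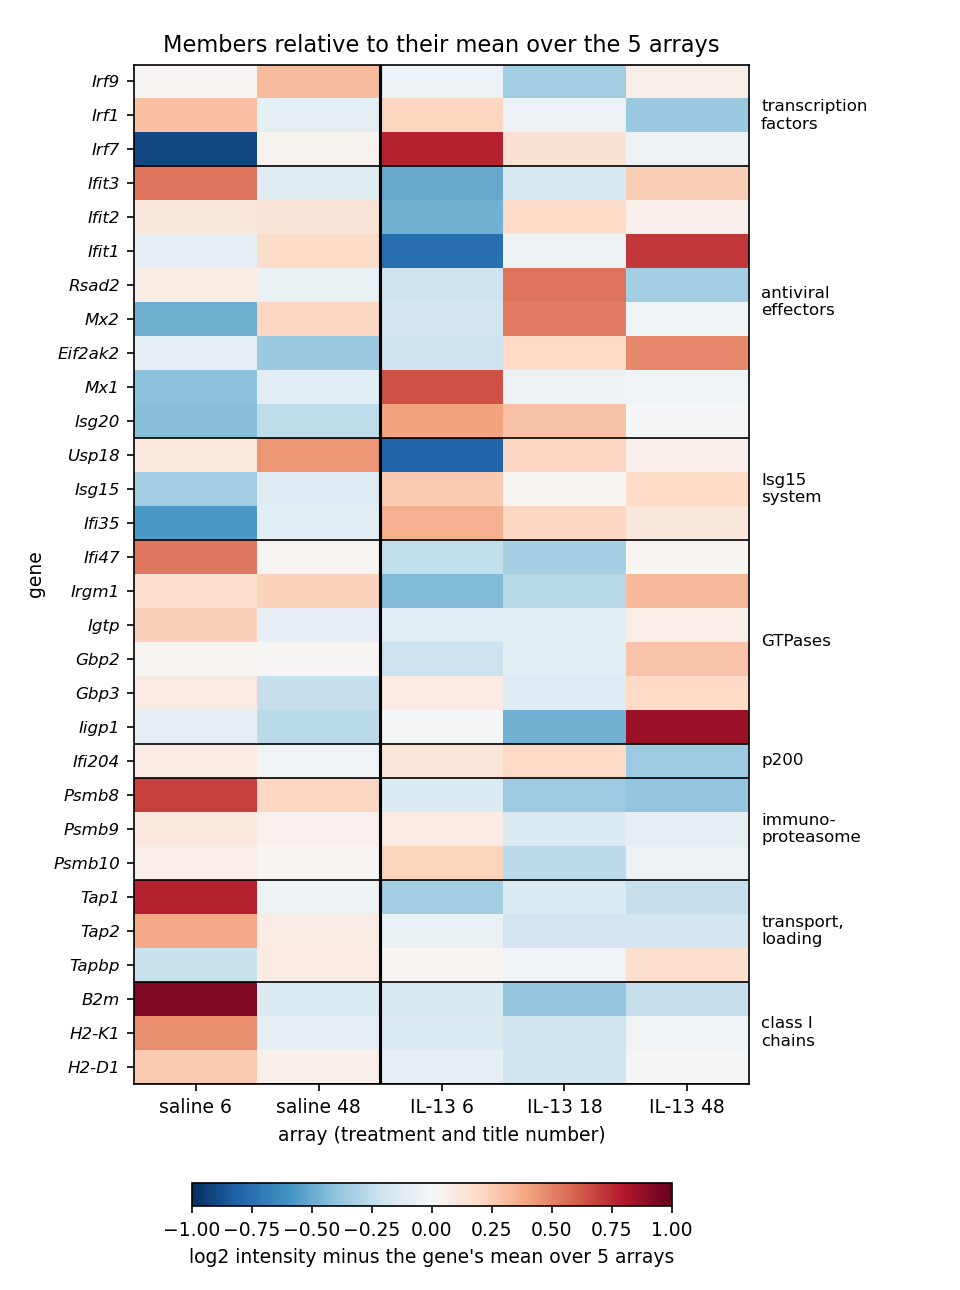
Log2 intensity of the 30 measured members on each array (columns, treatment and title number), minus the gene's own mean over the 5 arrays; red is above and blue below that mean, and rows are grouped by role. Most antigen presentation genes (bottom rows) are reddest on saline 6, while the antiviral and GTPase rows share no single pattern.

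The genome sequence just before the transcript start of several members holds letters of the elements through which interferon acts. It is given for 4 members without overlap between treatments, all 4 holding such letters, and for the start region that Tap1 shares with Psmb9. Ifi35, Ifi47 and H2-D1, also without overlap, held none within 250 bases before a start and are not shown. For Mx1 and Tap2 there was no promoter sequence to search. The sequences are RefSeq's for the build GRCm38.p6, a C57BL/6J reference and not A/J, read 5′ to 3′ toward the gene. Capitals mark matches to GAAANNGAA, the core of the interferon-stimulated response element searched on both strands, or to TTCNNNGAA, the gamma-activated sequence, which reads the same on both strands. Overlapping matches of an element are counted separately.

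Isg15 (chr4:156200819-156200968, minus strand, 3 overlapping response elements): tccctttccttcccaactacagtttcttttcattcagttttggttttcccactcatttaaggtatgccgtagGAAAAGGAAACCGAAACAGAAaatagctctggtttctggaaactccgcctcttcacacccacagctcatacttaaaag
Isg20 (chr7:78913274-78913423, plus strand, 1 gamma-activated sequence): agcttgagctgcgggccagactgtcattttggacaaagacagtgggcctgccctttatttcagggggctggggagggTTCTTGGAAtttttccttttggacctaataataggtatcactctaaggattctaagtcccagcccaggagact
Psmb8 (chr17:34198045-34198194, plus strand, 1 gamma-activated sequence): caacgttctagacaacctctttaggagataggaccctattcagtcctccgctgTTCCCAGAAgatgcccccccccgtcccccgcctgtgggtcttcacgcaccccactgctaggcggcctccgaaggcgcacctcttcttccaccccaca
B2m (chr2:122147537-122147686, plus strand, 1 response element): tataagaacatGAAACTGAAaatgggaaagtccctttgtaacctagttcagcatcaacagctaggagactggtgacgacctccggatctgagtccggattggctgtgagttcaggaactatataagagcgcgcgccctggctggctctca
Tap1 and Psmb9 (chr17:34187331-34187555, plus strand, no match): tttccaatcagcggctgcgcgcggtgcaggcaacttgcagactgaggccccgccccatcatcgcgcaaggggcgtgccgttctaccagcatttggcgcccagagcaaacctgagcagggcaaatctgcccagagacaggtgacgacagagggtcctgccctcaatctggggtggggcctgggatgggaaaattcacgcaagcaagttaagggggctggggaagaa

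The last of these lies between the starts of Tap1 and Psmb9, which are 225 bases apart and transcribed away from each other. The promoter table held 31 of the 37 members. Within 250 bases before a start, 15 of these 31 (48.4%) had the response element, against 8.18% of 27025 genes. The gamma-activated sequence was found for 9 (29%), against 8.13% of genes. Of the 24 members in the table that were also measured, 9 had the response element and 6 the gamma-activated sequence. At least 1 of the elements was present for 20 members (64.5%), and for 14 of the 24 also measured, against 15.3% of genes. The members were listed by name as interferon response and class I genes, so these shares are descriptions and not tests. Members with a match lay on either side of the treatment difference: Isg15 with 3 matches had a higher mean after IL-13 and B2m with 1 a lower mean, and Isg20 and Psmb8, each with a gamma-activated sequence, differed in opposite directions. A match describes letters in this window and is not a measured binding site.

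The transcription factors of the pathway had differences of either sign and no call. Irf1, which interferon gamma induces and which drives class I genes, read 1186 and 908.2 under saline against 1121, 927.6 and 746.3 under IL-13 (102401_at). The groups overlapped, and the difference was -0.18 (SE 0.24, adjusted p 0.855). Irf9, the DNA-binding part of the type I interferon complex, read 1044 and 1274 under saline against 981.9, 805.2 and 1068 under IL-13 (-0.29, SE 0.20, adjusted p 0.72). Among its IL-13 arrays only IL-13 48 reached into the saline range. Irf7, which amplifies type I interferon production, read 138.6 and 265.5 under saline against 442.7, 288.5 and 250.1 under IL-13 (162202_f_at). Its difference of 0.73 (SE 0.36, adjusted p 0.601) was the highest of the module, and it rested on the title number 6 arrays, at 3.19-fold, while the pair at 48 was 1.06-fold lower with IL-13. Without saline 6 it was 0.26. A second Irf7 probe set, 104669_at, whose name carries no ending for shared probes, pointed the other way (319 and 214.6 under saline against 242.3, 160.5 and 255 under IL-13, -0.28, SE 0.28, adjusted p 0.8, and 0.00 without saline 6). The direction of Irf7 is therefore unsettled on these arrays.

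Only 2 of the 8 antiviral effectors measured, Isg20 and Ifit1, passed the filter. Isg20 had the highest difference of the 8. It encodes an exonuclease that degrades RNA, and read 754.7 and 852.1 under saline against 1338, 1245 and 999.5 under IL-13 (103432_at). Every IL-13 array was above both saline arrays. The difference was 0.56 (SE 0.20, adjusted p 0.503), 1.48-fold, and 0.48 without saline 6. Mx1, a GTPase that blocks influenza virus, for which most laboratory strains carry a defective allele, was dim. It read 99.41 and 122 under saline against 205.6, 126.9 and 128.1 under IL-13, so the groups did not overlap, but only IL-13 6 stood clear of saline 48. Eif2ak2, the kinase that stops translation on sensing double-stranded RNA, read 131.1 and 108.1 under saline against 121.5, 159.9 and 195.2 under IL-13 (difference 0.39). Its groups overlapped and it was below the filter.

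The Ifit genes, which bind foreign RNA and are among the most strongly interferon-induced genes, had no higher mean after IL-13. Ifit1 read 199 and 238 under saline against 124.5, 203 and 342.2 under IL-13 (-0.08, SE 0.41, adjusted p 0.959). It was lowest on IL-13 6 and highest on IL-13 48, a 2.75-fold span within 1 treatment. Ifit2 read 100.8 and 101.7 under saline against 67.01, 105.8 and 96.57 under IL-13. Ifit3 read 178.4 and 113.3 under saline against 86.88, 110.2 and 146 under IL-13. All 3 were lowest on IL-13 6, and Ifit2 and Ifit3 were below the filter. Rsad2 (viperin, which blocks viral replication) read 203.3 and 183.2 under saline against 167.3, 282 and 152.9 under IL-13, and Mx2 read 90.6 and 146.5 under saline against 111.8, 181.4 and 123.8 under IL-13. Both had IL-13 18 as their highest array and overlapped between treatments.

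In the Isg15 system, the modifier and its protease differed in direction. Isg15, a ubiquitin-like protein attached to other proteins after interferon, read 516.6 and 598.5 under saline against 784.5, 664.3 and 754 under IL-13 (98822_at). Every IL-13 value exceeded saline, with a difference of 0.40 (SE 0.18, adjusted p 0.569), or 0.29 without saline 6. Usp18, which removes Isg15 and damps the type I receptor, read 322.5 and 407.7 under saline against 172.3, 347.3 and 311.6 under IL-13 (-0.45, SE 0.33, adjusted p 0.725). Its low value was on IL-13 6, where Ifit1 was low too. Ifi35, an interferon-induced leucine zipper protein, read 500.3 and 691.4 under saline against 950.2, 860.7 and 805.9 under IL-13 (100013_at). That was a difference of 0.57 (SE 0.21, adjusted p 0.512), 1.48-fold, without overlap, and 0.33 without saline 6. The gain over the matched saline array was 1.9-fold at 6 and 1.17-fold at 48.

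**Figure D2:**
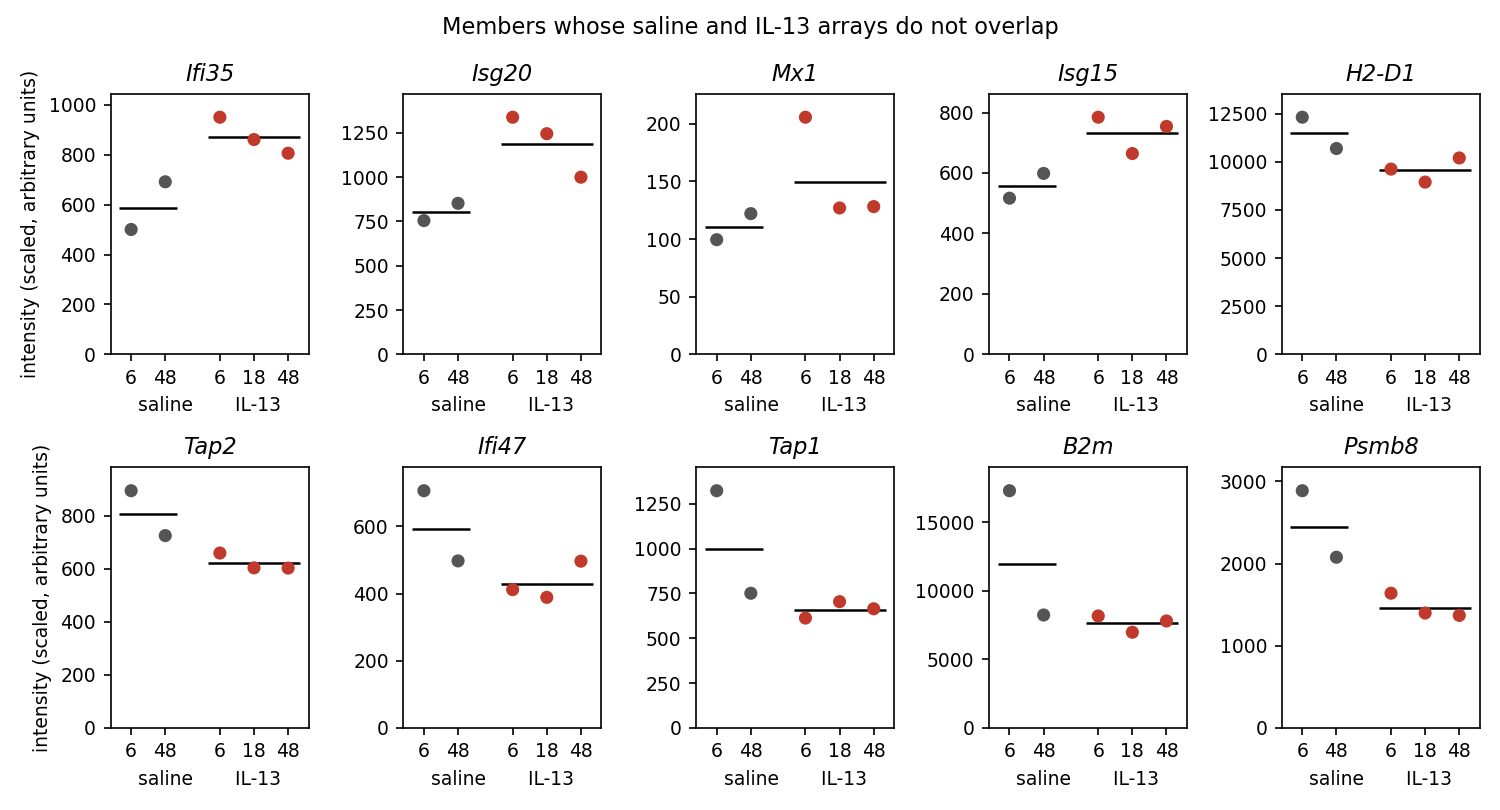
Scaled intensity (linear axis from 0) on each array for the 10 members whose saline (grey) and IL-13 (red) arrays do not overlap; numbers are title numbers and bars are group means taken on the log2 scale. Ifi35, Isg20, Mx1 and Isg15 are higher with IL-13; Tap1 and B2m have saline 48 close to the IL-13 points, and Psmb8 does not.

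The interferon-inducible GTPases, which interferon gamma induces against intracellular microbes, were mostly close to saline, with IL-13 48 high for several. Iigp1 read 871.5 and 774.5 under saline against 919.5, 668.6 and 1701 under IL-13 (96764_at). IL-13 48 was 2.2-fold above saline 48, and the other IL-13 arrays lay near the saline values. The second Iigp1 probe set, 103963_f_at, had the same outlying array (202.6 and 196.3 under saline against 181.8, 241.4 and 565.7 under IL-13). Gbp2 and Gbp3, guanylate-binding proteins, were also highest on IL-13 48, at 653.4 and 941.2, against 541.1 to 542.3 and 699.4 to 870.4 with saline. The treatment difference was 0.31 for Iigp1 (SE 0.38, and -0.07 without IL-13 48), -0.03 for Gbp2 (SE 0.21) and 0.12 for Gbp3 (SE 0.19), with adjusted p from 0.844 to 0.974. 4 of the 6 GTPases had their highest value on IL-13 48.

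The immunity-related GTPases Irgm1, Igtp and Ifi47 gave lower means. Irgm1, a regulator of the family, read 529.9 and 555.2 under saline against 348.9, 389.7 and 592.1 under IL-13 (-0.33, SE 0.26, adjusted p 0.745). IL-13 6 and IL-13 18 were low, and IL-13 48 was above saline. Igtp read 385 and 307.9 under saline against 301.8, 302.9 and 340.9 under IL-13 (-0.13, SE 0.18). Ifi47 read 706.4 and 497.3 under saline against 411.7, 388.7 and 496.5 under IL-13 (-0.46, SE 0.22, adjusted p 0.593). Its groups did not overlap, but IL-13 48 all but equalled saline 48, and the difference was -0.21 without saline 6. Ifi204 is a DNA sensor and the only p200 member measured. It read 506.8 and 465.7 under saline against 520.5, 547.7 and 372.1 under IL-13 (-0.04, SE 0.22, 98465_f_at). The ending f_at marks shared probes. The other Ifi204 probe sets were dim, below the filter and of the opposite sign, with overlap. 98466_r_at differed by 0.31, and 161180_r_at, below the floor on 4 arrays, by 0.37.

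Among the chosen probe sets of the module, Psmb8 had the largest absolute difference and the lowest unadjusted p. It encodes a catalytic subunit of the immunoproteasome, the interferon-induced form of the proteasome that favours class I peptides. It read 2887 and 2077 under saline against 1639, 1398 and 1369 under IL-13 (102791_at). The lowest saline value was well above the highest IL-13 value. The difference was -0.74 (SE 0.21, adjusted p 0.412), so that IL-13 stood at 59.8% of saline. It was -0.50 without saline 6 and lay between -0.98 and -0.50 over 14 alternative settings, some of which cannot change a difference. With both saline arrays kept, the limma adjusted p was 0.371 to 0.831.

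The other catalytic subunits of the immunoproteasome had smaller differences. Psmb9 read 718.5 and 685.9 under saline against 706.6, 606.7 and 625.3 under IL-13 (-0.12, SE 0.17, adjusted p 0.857). Psmb10 read 1213 and 1173 under saline against 1351, 966.2 and 1112 under IL-13 (-0.08, SE 0.20). In both, the treatments overlapped through IL-13 6. The constitutive subunits that these 3 replace gave small differences too. Psmb5, replaced by Psmb8, differed by -0.03 (SE 0.19), Psmb6, replaced by Psmb9, by -0.09 (SE 0.18), and Psmb7, replaced by Psmb10, by -0.17 (SE 0.16, without overlap). The 14 constitutive proteasome genes, all tested, had a median of 0.04 (8 higher, 6 lower, range -0.25 to 0.18), none called, and Psma6 (-0.25, SE 0.16) and Psma7 (0.14, SE 0.16), subunits of its outer rings, showed no overlap. Whether Psmb8 differed from Psmb5 was not tested.

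Both peptide transporter genes had every IL-13 value below saline. Tap1, a chain of the transporter that moves peptides into the endoplasmic reticulum, read 1323 and 750.9 under saline against 612.4, 704 and 664.3 under IL-13 (103035_at). The difference was -0.60 (SE 0.26, adjusted p 0.567), but the gap was 2.16-fold at 6 and 1.13-fold at 48, and without saline 6 the difference was -0.19. Its dim probe set 162278_r_at (110.5 to 125.5 on all arrays) differed by 0.01. Tap2, the partner chain, read 893.7 and 724.5 under saline against 658.8, 603 and 602.1 under IL-13 (-0.37, SE 0.18, adjusted p 0.588; -0.22 without saline 6). Tapbp (tapasin), which bridges the transporter and class I chains, read 2440 and 3011 under saline against 2888, 2778 and 3181 under IL-13 (0.12, SE 0.18). It was the only presentation member with a higher mean (-0.03 without saline 6), and its other probe sets differed by 0.05 and -0.04. Tap1 and Psmb9, whose starts share the 225 bases printed above, thus differed by -0.60 and -0.12.

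The class I molecule itself gave lower means throughout. B2m, the light chain common to all class I molecules, read 17291 and 8229 under saline against 8158, 6969 and 7793 under IL-13 (93088_at, -0.65, SE 0.32, adjusted p 0.601). Saline 48 was lower than saline 6 by more (-1.07) than the treatment difference, and IL-13 6 lay just under saline 48. Without saline 6 the difference was -0.11. H2-D1, a heavy chain, read 12313 and 10687 under saline against 9618, 8944 and 10197 under IL-13 (97540_f_at, -0.26, SE 0.17, adjusted p 0.697). H2-K1, the other heavy chain measured, read 18408 and 12445 under saline against 12161, 11629 and 13018 under IL-13 (93120_f_at, -0.30, SE 0.22, adjusted p 0.72), and IL-13 48 overlapped saline. Without saline 6 these were -0.16 and -0.02.

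All 6 probe sets of H2-K1 and H2-D1 had a lower mean after IL-13, and 4 of them had no overlap. The widest gap was in 97700_at, annotated as H2-K1, which read 1316 and 2161 under saline against 774.4, 732.5 and 496.6 under IL-13. Its difference of -1.36 (SE 0.30, adjusted p 0.312) was -1.72 without saline 6. The 5 other probe sets differed by -0.39 to -0.19. They carry the ending f_at, which marks probes shared by related transcripts, so a class I gene is not measured alone by them. Class I heavy chains also vary between strains, and the match of these probes to A/J sequence was not tested. Over all 16 probe sets of the 9 presentation genes, 13 had a lower mean and 8 lay wholly below saline. Probe sets of the same gene are not independent observations. At 1 probe set each, 8 of the 9 genes had a lower mean and 5 lay wholly below saline. Among all genes, at 1 probe set each, 40.1% had a lower mean and 9.39% lay wholly below.

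**Figure D3:**
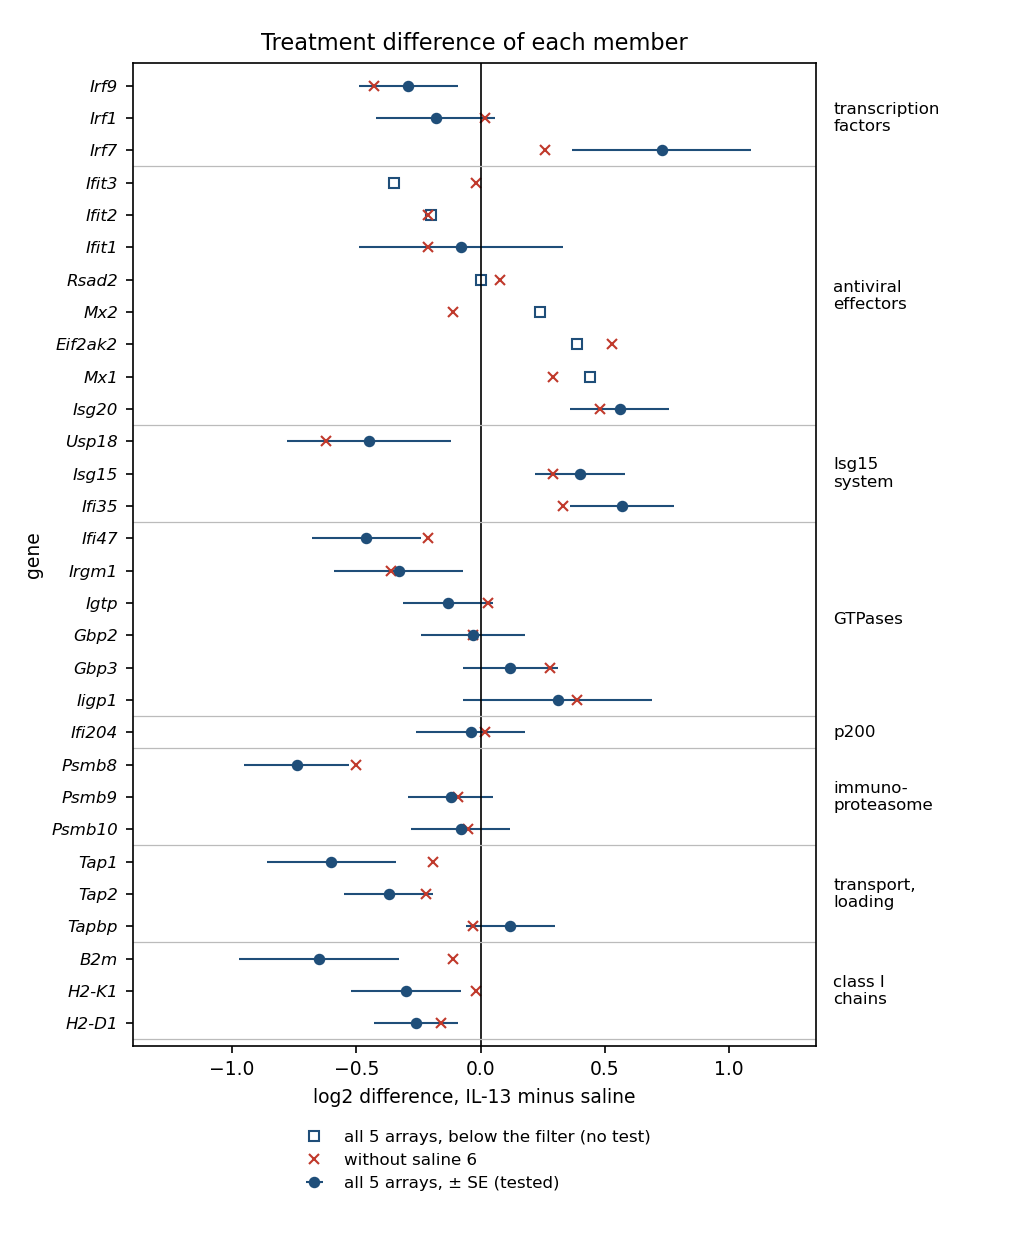
Log2 difference, IL-13 minus saline, for the 30 members by role: filled circles with bars are the limma estimates ± SE of the 24 tested members, open squares the 6 below the filter, and red crosses the difference without saline 6. Psmb8 stays at -0.50 without saline 6, while B2m, Tap1 and H2-K1 (by 93120_f_at) come close to 0. The H2-K1 probe set 97700_at, at -1.72 without saline 6, is not drawn.

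By their chosen probe sets, the presentation genes depended in part on saline 6. Their median difference was -0.30 with all arrays and -0.11 without saline 6, and all 3 IL-13 arrays were below saline 48 for the same number of genes, 5 of 9, where 22.9% of all genes are. For the 21 interferon response members the median was -0.03 and 0.02. Saline 6 was the highest array for 7 of the 9 presentation genes, all but Tapbp and Psmb10. Markers of antigen-presenting and lymphoid cells differed between the arrays as well. The 8 measured genes of the dendritic cell and MHC class II list summed to 28041 on saline 6, 16205 on saline 48 and 13524 to 14192 with IL-13. Most of that sum was MHC class II transcript, with Cd74, the class II invariant chain, at 15192 of it on saline 6. Itgax, a surface marker of dendritic cells, had a higher mean after IL-13 (0.48) with overlap. B cell markers (8 measured) summed to 9481 and 2037 with saline and 1849 to 4097 with IL-13. Of the 14 T cell markers, whose sums are given above, 11 had every IL-13 value below saline, against 9.39% of all genes. The widest gap was that of Cd3e, part of the T cell antigen receptor, at 1911 and 1804 against 415, 843.2 and 107.7 (-2.47, SE 0.78, adjusted p 0.469), and Lat, an adaptor of the same receptor, had a higher mean (0.31) with overlap. Natural killer cell markers (6 measured) were dim, with sums of 452 to 754 with saline and 303 to 488 with IL-13, and Ncr1 was below 55.3 on every array. The 12 macrophage and monocyte markers summed to 19975 and 23125 under saline and to 19980 to 21989 under IL-13. Lyz2 alone made up 10708 of the sum on saline 6. Of the 12, 5 had a higher and 7 a lower mean, and only Mpeg1 lay wholly below saline (-1.19, SE 0.32). The part of these cells in the class I differences was not tested.

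**Figure D4:**
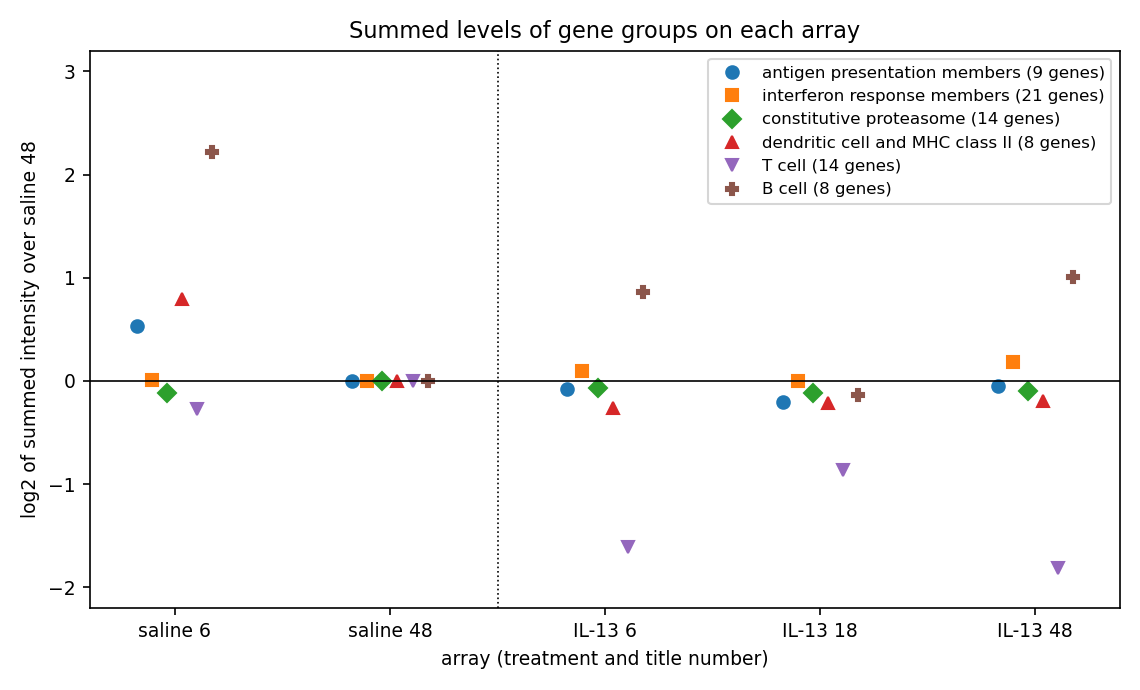
Summed intensity of 6 gene groups on each array, as log2 of the ratio to saline 48, with 1 symbol per group. On saline 6 the presentation members, the MHC class II list and the B cell markers lie above saline 48. On the IL-13 arrays the T cell markers lie below saline 48 and the interferon response members within 0.2 of it. The MHC class I chains made up 48012 of the presentation sum of 57488 on saline 6, and 31361 of 39784 on saline 48.

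In single pairs of arrays with the same title number, few members reached 2-fold with the brighter array above 343. At 6, Irf7 was 3.19-fold higher with IL-13 by its chosen probe set and 1.32-fold lower by 104669_at, and Tap1 (2.16-fold) and B2m (2.12-fold) were lower. Across all genes 2.08% were 2-fold higher and 2.42% 2-fold lower in that pair. At 48, Iigp1 alone reached 2-fold by the chosen probe sets, as higher, where 0.533% of genes did so and 1.14% were lower. The H2-K1 probe set 97700_at was 4.35-fold lower with IL-13 in that pair. With IL-13 18 set against the saline mean, none of the 30 members was 2-fold apart by its chosen probe set. Across all genes 1.12% were higher and 1.08% lower, and 97700_at differed by -1.20. These pairs have no replicates and no test. Over the 30 members the median log2 difference was -0.17 in the pair at 6, -0.03 in the pair at 48 and -0.14 on IL-13 18. Between the saline arrays (48 minus 6) it was -0.09.

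Interferon ligands and receptors, outside the module, included a wider gap than that of any member taken by its chosen probe set. Of 14 measured genes in this list 8 were tested and none was called, with 8 higher and 4 lower means and a median of 0.12. Ifnar2, a chain of the type I receptor, read 898.4 and 680.5 under saline against 300.8, 402.6 and 353.5 under IL-13 (101014_at, -1.16, SE 0.21, adjusted p 0.261, and -0.96 without saline 6). Ifngr1, the ligand-binding chain of the interferon gamma receptor, read 907.8 and 953 under saline against 582.9, 707.7 and 643.9 under IL-13 (-0.53, SE 0.17, adjusted p 0.469). Its partner Ifngr2 read 468.7 and 451.3 under saline against 592.4, 699.5 and 598 under IL-13 (0.45, SE 0.17, adjusted p 0.529). The chains of that receptor thus differed in opposite directions without overlap. Ifng was below 55.3 on all 5 arrays, so interferon gamma transcript was not measured above the floor.

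Of the signalling genes and sensors, 16 were measured and 14 tested, with a median of -0.08 and none called. Socs1, an inhibitor of Janus kinases, read 594.2 and 808.8 under saline against 421.9, 467.1 and 411.1 under IL-13 (-0.68, SE 0.20, adjusted p 0.43). Ptpn6, a phosphatase of blood cells, differed by -0.95 (SE 0.28, and -0.66 without saline 6), the related inhibitor Socs3 by 0.30 (SE 0.17) and Ifih1, a cytoplasmic sensor of viral RNA, by 0.30 (SE 0.16), each without overlap. Of 30 other interferon-induced genes measured, 18 were tested and the median was -0.05. Among the 30, 4 lay wholly above and 1 wholly below saline, against 12.8% and 9.39% of all genes. The tested ones were Irgm2, a relative of Irgm1 (0.46, SE 0.18), Ifitm3, which blocks virus entry (0.34, SE 0.21, and 0.06 without saline 6), and Ifi27l2a (-0.64, SE 0.24, and -0.34 without saline 6). Irgm2 and Irgm1 therefore differed in opposite directions.

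Class I relatives outside the module gave differences of both signs. Of 15 measured, 10 were tested and none was called. A lower mean was found for 9 and a higher mean for 5, while 4 lay wholly below and 2 wholly above saline, against 9.39% and 12.8% of all genes. Their median was -0.17 with all arrays and -0.08 without saline 6, and it was 0.18 on IL-13 18. Cd1d1, which presents lipids to natural killer T cells, read 2177 and 1212 under saline against 965.8, 780.8 and 889.5 under IL-13 (-0.89, SE 0.28, adjusted p 0.455, and -0.47 without saline 6). H2-Q4 (99378_f_at) differed by -0.77 (SE 0.28) and H2-M2 by -0.65 (SE 0.28), which became -0.36 and -0.24 without saline 6. H2-Q10 differed by 0.34 (SE 0.17) and by 0.35 without saline 6. Of 8 measured proteasome activators and loading partners, 6 were tested and none was called, with a median of -0.01 over the list. Psme3, a proteasome activator of the nucleus, read 1827 and 1921 under saline against 1021, 1054 and 1154 under IL-13 (-0.80, SE 0.16, adjusted p 0.288). That gap was no narrower without saline 6 (-0.84). Psme1, an interferon-induced activator, differed by -0.23 (SE 0.16). Pdia3, a disulfide isomerase of the loading complex, differed by 0.75 (SE 0.39) and by 0.04 without saline 6, which read 1295 against 3481 to 3602 on the other 4 arrays.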

How the data were processed

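The deposited table holds intensity values of 12488 probe sets on 5 arrays, on a linear scale. No source used here names the authors' software, background correction or scaling, though every array's deposited intensity has a 2% trimmed mean of 800.4 to 800.5. Gene symbols came from the platform annotation (10833 probe sets with 1 symbol, 396 with several, 1193 with none), updated through a RefSeq gene table. After leaving out 66 control probe sets, the trimmed mean was made equal on all arrays, a floor was set at an intensity of 55.3 (20th percentile over all arrays) and values were turned to log2. The 7811 probe sets that exceeded 210 (40th percentile) on 2 or more arrays were tested by limma 3.58.1 (R 4.3.3, lmFit with eBayes), two-sided, with treatment as the only term and Benjamini-Hochberg adjustment. The residual degrees of freedom were 3. SE is the moderated standard error. Simulated data served to check the mean estimates of the fit, and how often a true difference would be called is not given here. The number of arrays limits the precision.

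Counts over the module use all 30 measured members, whether tested or not, with no test over the list. A fold in a pair counts where the brighter array exceeds the pooled median (343). The members and lists were chosen with earlier results of these data known. Text names every measured member, up to 4 tested genes of each other pathway list that showed no overlap, and up to 2 markers of a cell type; Psmb5, Psmb6, Ifng, Scgb1a1, Sftpc and Ncr1 were named in addition after their values were seen. Alternatives were other scalings, floors and filters, limma's trend with robust fitting, the title number as block, leaving out each array, other folds, the other saline array and all probe sets of a gene. Figures were drawn with matplotlib 3.10.9.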

Additional observations from a re-analysis of the deposited data

How the results depend on the processing

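None of the 24 tested members passed under any alternative that kept both saline arrays. For the members, fits with 1 saline array were read for their differences only, so no p is given for those. Of 328 alternative values 314 kept their direction, but many of these could not differ. Changing the filter or using limma's trend and robust options leaves a difference as it was. The deposited values were already on nearly the same scale. Psmb8 was -0.74 under each of these settings. Leaving out the IL-13 array without a saline partner gave the same estimate as the block, 0.47 for Isg15. When single arrays were left out, 9 of the 24 members reversed. The count of 4 probe sets called over the whole table became 0 without any filter, with either other floor (10th, 40th percentile), with limma's trend and robust options and with title number as a replicate block over the paired arrays, and 1 with the filter at the 60th percentile. Leaving out 1 array gave 0 to 10 (10 without saline 48, 1 without saline 6, 0 without any single IL-13 array). At an unadjusted p below 0.05 there were 723. The causes were not tested. The module's median of -0.10 was -0.03 with the floor at the 40th percentile and -0.14 to -0.03 leaving out 1 array (-0.03 without saline 6), and -0.12 with the block. Of members near 0, Ifit1 was 0.14 with the floor at the 40th percentile, and with the block Gbp2 was 0.02 and Psmb10 0.04. Leaving out 1 array gave -0.21 to 0.28 for Ifit1 in the 3 fits where it passed the filter (-0.45 to 0.28 over all 5 without that filter), -0.37 to 0.02 for Irf1, -0.18 to 0.07 for Gbp2, -0.03 to 0.28 for Gbp3, -0.29 to 0.03 for Igtp, -0.07 to 0.61 for Iigp1, -0.14 to 0.14 for Ifi204, -0.20 to 0.04 for Psmb10 and -0.03 to 0.27 for Tapbp. In the pair at 6, the 3 members at least 2-fold apart became 10 at 1.5-fold, 1 at 3-fold and 1 against saline 48; in the pair at 48, the 1 member became 2 at 1.5-fold, 0 at 3-fold and 2 against saline 6.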
